A study of Mus musculus with 6 samples.

Results

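The EGR, NR4A and IER immediate-early genes were followed as 10 rows of the deposited expression table, taken by gene symbol: Egr1, Egr2, Egr3, Nr4a1, Nr4a2, Nr4a3, Ier2, Ier3, Ier5 and Srf. All 10 were among the 18019 symbols of the table, and 7 of them were among the 9728 genes that reached at least 1 FPKM (fragments scaled to transcript length and to library size) in at least 3 of the 6 libraries. Egr2, Egr3 and Nr4a2 stayed under that level. The samples were RAW264.7 cells, a virus-transformed mouse macrophage line, and all had been induced with lipopolysaccharide (LPS), an endotoxin of bacterial cell walls that puts macrophages into an inflammatory (M1) state. The control group (n = 3) received no TPPU. The other group (n = 3) was treated with TPPU, which blocks soluble epoxide hydrolase and so the breakdown of epoxyeicosatrienoic acids, lipid mediators made from arachidonic acid. The dose, the times of LPS and TPPU exposure and any vehicle were not stated in the labels, and no cells without LPS were analysed here. Nothing in the labels ties the libraries to separate cultures, and p-values then measure only how far these samples spread, a spread that may be technical.

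Immediate-early genes are transcribed within minutes of a stimulus without new protein synthesis, and most of their transcripts decay quickly. In macrophages LPS acts through Toll-like receptor 4 and the ERK and p38 kinases, which phosphorylate factors such as ELK1 and CREB that already sit in the nucleus. ELK1 works together with serum response factor (SRF) on CArG boxes, and CREB binds cAMP response elements, whose core letters are TGACG. The EGR proteins are zinc-finger transcription factors, the NR4A proteins are orphan nuclear receptors that act without a known circulating ligand, and the IER genes encode short-lived regulators of transcription, survival and the heat shock response.

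The upstream windows of the set are shown first because they differ in these elements. For 7 of the 10 genes (all but Egr1, Egr3 and Ier2) the 250 bases before the transcription start were read from RefSeq (GRCm38.p6, the same assembly as mm10), and matches on either strand were counted. No window of Egr1, Egr3 or Ier2 was read, so the counts say nothing of the elements of those genes. A CArG box, the SRF element, was present in the windows of Egr2 and Srf, 2 of 7, against 1.47% of 32851 RefSeq windows of the same length. The 5 letters TGACG occurred in 5 of 7, against 17.8% of all windows. The 7 windows had a GC content of 54.4% to 80%. The shares of all windows, here and below, are over windows not matched to them in GC content. The windows of Nr4a1, Nr4a2 and Nr4a3 each held 4 matches of TGACG, a number reached by 0.137% of all windows. Capitals mark CArG boxes and TGACG, read on either strand, in the 5 windows that hold either, each written 5′ to 3′ on the strand of the gene.
Nr4a1 (+ strand, chr15:101266596-101266845): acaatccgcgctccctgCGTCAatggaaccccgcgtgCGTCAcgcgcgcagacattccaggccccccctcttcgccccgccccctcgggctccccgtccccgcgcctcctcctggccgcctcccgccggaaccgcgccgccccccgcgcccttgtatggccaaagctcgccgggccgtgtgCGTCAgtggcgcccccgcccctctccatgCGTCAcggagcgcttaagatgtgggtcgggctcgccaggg
Nr4a2 (- strand, chr2:57124004-57124253): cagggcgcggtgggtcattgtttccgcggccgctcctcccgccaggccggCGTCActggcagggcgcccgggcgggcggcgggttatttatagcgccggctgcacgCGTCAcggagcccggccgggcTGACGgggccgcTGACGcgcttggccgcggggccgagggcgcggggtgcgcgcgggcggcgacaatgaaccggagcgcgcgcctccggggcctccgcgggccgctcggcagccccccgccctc
Nr4a3 (+ strand, chr4:48045055-48045304): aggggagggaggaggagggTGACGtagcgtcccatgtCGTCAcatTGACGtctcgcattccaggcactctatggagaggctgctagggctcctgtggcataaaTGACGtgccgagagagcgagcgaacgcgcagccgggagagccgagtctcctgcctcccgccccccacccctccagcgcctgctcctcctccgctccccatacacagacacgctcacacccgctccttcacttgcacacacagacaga
Egr2 (+ strand, chr10:67537619-67537868): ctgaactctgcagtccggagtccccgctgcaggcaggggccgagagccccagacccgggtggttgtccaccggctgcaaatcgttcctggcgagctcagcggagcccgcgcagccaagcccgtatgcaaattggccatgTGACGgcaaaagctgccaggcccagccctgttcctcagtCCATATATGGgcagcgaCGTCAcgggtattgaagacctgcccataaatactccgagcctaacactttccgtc
Srf (- strand, chr17:46556163-46556412): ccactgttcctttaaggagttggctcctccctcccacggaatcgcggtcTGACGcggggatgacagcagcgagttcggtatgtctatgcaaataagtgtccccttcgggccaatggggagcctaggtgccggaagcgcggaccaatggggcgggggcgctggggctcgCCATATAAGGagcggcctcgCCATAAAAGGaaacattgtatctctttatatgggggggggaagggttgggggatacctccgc
The box of Egr2 lay 72 to 63 bases before the start, and those of Srf 82 to 73 and 62 to 53 bases before it. Egr2 has 5 start sites in the table, and the window shown is the one nearest to the start of its longest GENCODE M21 transcript. The windows of Ier3 and Ier5 held neither motif. GGGCGG, the core of the GC box, was found in 6 of the 7 windows (all but Egr2), against 32.7% of all. GCGNGGGCG, a form of the EGR site that can overlap it, was found in Nr4a1, Nr4a2 and Srf, against 4.7% of all. A match is a description of the letters and not evidence of binding in these cells.

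Facts of the whole series that touch these genes are as follows. Estimated depth was 17.8 to 22.9 M (mega) fragments per library, so 1 fragment in a 1 kb transcript was worth 0.0436 to 0.0561 FPKM. Control replicate 3 stood apart. Its Pearson's r with the other libraries across genes, which are not independent replicates, was 0.958 to 0.977, while TPPU replicates 2 and 3 reached 0.991 with each other. Mitochondrially encoded transcripts made up 0.371% of its FPKM and 0.914% of that of TPPU replicate 1, and between 1.46% and 1.85% of that of each remaining library. It held more of GC-rich transcripts (Spearman's rho of 0.61 between GC content and its departure from the mean of the 6 libraries, again across genes). Macrophage markers were present in every library (8 of 8 genes, summed 1549 to 1740 FPKM in control and 1636 to 1725 with TPPU). Of the 7 tested, Lyz2 and Adgre1 had separated groups with TPPU higher (7.48% of all tested genes). Their differences were 0.34 (limma adjusted p = 0.562) and 0.30 (limma adjusted p = 0.566). With quality weights 1 of the 7 was called higher (0.915% of all tested genes). The part of these markers in the results was not tested. The summed FPKM of T cell, B cell, epithelial and endothelial markers stayed at or under 1.22 per list, and that of fibroblast markers at 0.913 to 4.05. The 3 hepatocyte markers Alb, Apoa1 and Ttr summed to 32.1 to 67.3 in control and 76.4 to 139 with TPPU. Their differences were 0.85 to 1.23, all 3 at an unadjusted limma p under 0.05 (4.19% of all tested genes higher). Groups were separated with TPPU higher in 2 of the 3 (7.48% of all tested genes). With quality weights 2 were called higher (0.915% of all tested genes). The part of these hepatocyte markers in the results was not tested. The sample descriptions cite, for the TPPU group, a column name of another table that refers to LIS1. Pafah1b1, the gene of LIS1, measured 10.8 ± 3.92 FPKM in control and 12.8 ± 1.87 with TPPU (SD, n = 3), with overlapping values. Ephx2, the gene of soluble epoxide hydrolase, was at 0.447 to 0.865 FPKM in control and 0.42 to 2.56 with TPPU.

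With TPPU, 4 of the 10 genes (Egr1, Egr2, Ier2 and Ier5) had every value below every control value, and the other 6 overlapped between the groups. Egr1 and Egr2 stood at 0.458 and 0.459 of their control means, Ier2 at 0.542 and Ier5 at 0.619. No gene of the set passed the test over all genes: limma gave 0 of 7 tested members lower and 0 higher at an adjusted p under 0.05, as for all 9728 genes (0% in each direction). At an unadjusted p under 0.05, 3 of 7 were lower and 0 were higher, where 3.7% of all tested genes were lower and 4.19% higher. The same 3 tested members, Egr1, Ier2 and Ier5, had separated groups, against 7.88% of tested genes in that direction and 7.48% in the other. The median change of the 7 was -0.57 on the log2(FPKM + 1) scale, against 0.02 over all genes tested, and was -0.22 without control replicate 3. With libraries weighted by quality, an alternative that gave control replicate 3 a weight of 0.191 and control replicate 1 a weight of 3.84, those 3 genes passed, where 0.822% of all tested genes were called lower and 0.915% higher.

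**Figure D1:**
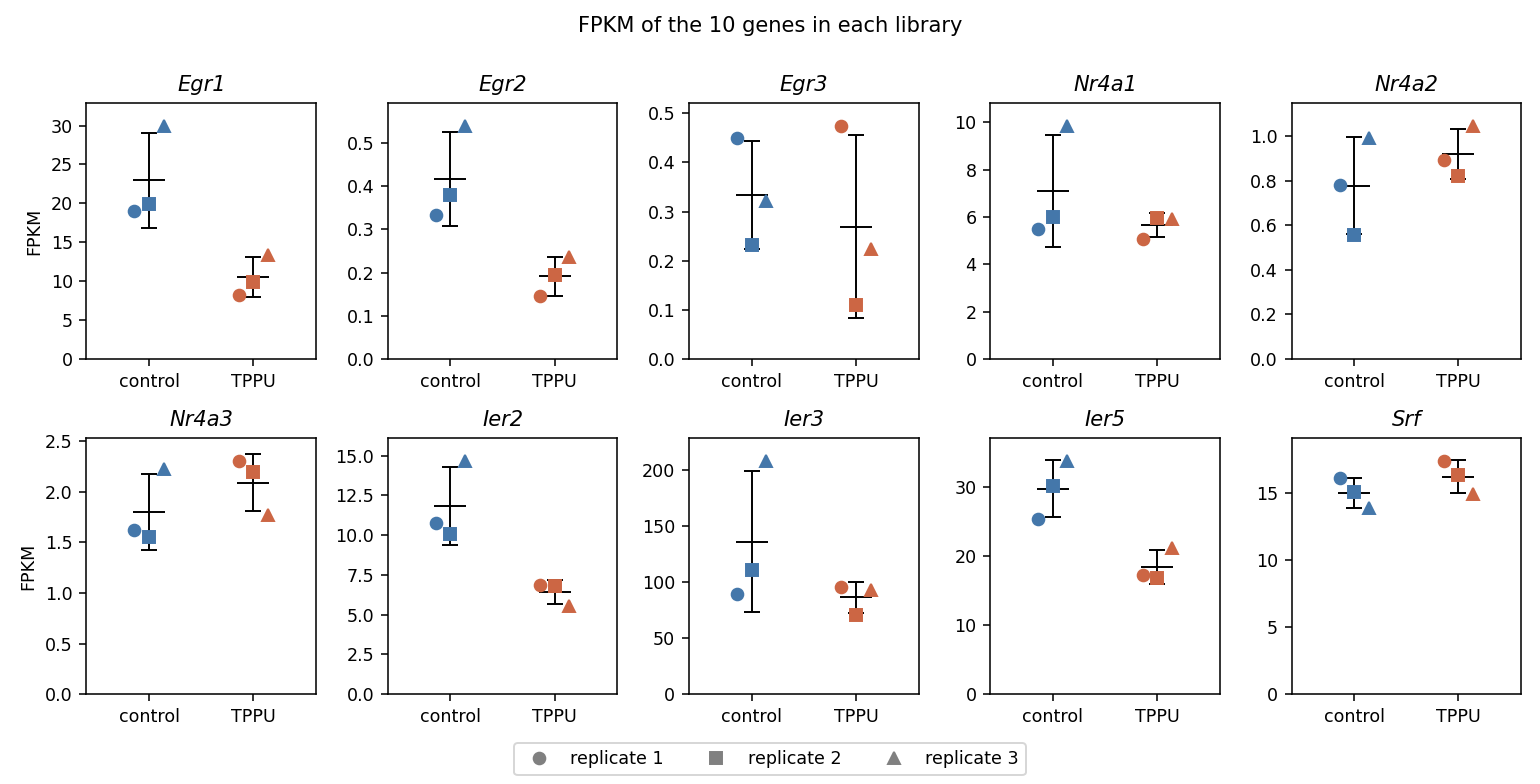
FPKM (linear axis from 0, one scale per gene) of the 10 genes in the 3 control and 3 TPPU libraries. Symbols mark the replicate, and bars show the mean and 1 SD. Egr1, Egr2, Ier2 and Ier5 have all TPPU points below all control points, and in the control group of Ier3 and Nr4a1 replicate 3 lies well above the other 2.

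Among the EGR genes Egr1 and Egr2 had separated groups, with TPPU lower, and Egr3 overlapped. Egr1 (ENSMUSG00000038418.7, chr18:34859823-34864984, + strand, mm10), the member of the family that most cells induce by way of ERK and SRF, measured 19, 19.9 and 29.9 FPKM in control replicates 1, 2 and 3 and 8.28, 9.92 and 13.3 in TPPU replicates 1, 2 and 3. The highest TPPU value, 13.3, was well under the lowest control value, 19. Its difference was -1.05 on the log2(FPKM + 1) scale (SE 0.21, limma adjusted p = 0.335), or -0.85 without control replicate 3. Only 4 of the 9728 tested genes had a more negative change, and Egr1 ranked 24 by p. Over the alternatives its limma adjusted p ran from 0.0253, with quality weights, to 0.88.

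Egr2 (chr10:67535475-67542188, + strand), which directs myelination in Schwann cells and is also used by macrophages, was low, under 1 FPKM in every library. It measured 0.333, 0.379 and 0.539 FPKM in control replicates 1 to 3 and 0.145, 0.194 and 0.236 in TPPU replicates 1 to 3. The groups did not overlap, as for 4.1% of the 8291 genes under the filter in this direction and 3.99% in the other. Taken over its longest transcript, these values correspond to 17.6 to 30.8 fragments in control and 7.93 to 14.9 with TPPU. The difference was -0.25 with a pseudocount of 1 and -0.82 with a pseudocount of 0.1, and a two-sided exact permutation test gave p = 0.1, the smallest that 3 libraries against 3 allow.

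Egr3 (chr14:70077203-70082614, + strand), a target of NFAT in T cells, measured 0.449, 0.232 and 0.321 FPKM in control and 0.474, 0.11 and 0.225 with TPPU. Replicate 1 was the highest of both groups and the ranges overlapped. The difference was -0.08 (two-sided exact permutation p = 0.7), or 0.013 without TPPU replicate 2, the lowest library, where about 9.88 fragments stood behind the value. Egr4, the remaining gene of the family, did not reach the filter. Nab1 and Nab2 are the genes of co-repressors that bind EGR proteins. They measured 11.5 ± 0.43 and 4.33 ± 0.65 FPKM in control and 11.7 ± 1.26 and 4.22 ± 0.54 with TPPU (SD, n = 3). Both had overlapping values.

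The IER genes had lower means with TPPU in all 3 cases, of which Ier2 and Ier5 had separated groups. Ier2 (ENSMUSG00000053560.4, chr8:84661331-84662852, − strand), a single-exon gene of a nuclear protein linked to transcription and cell motility, measured 10.8, 10.1 and 14.6 FPKM in control and 6.88, 6.82 and 5.53 with TPPU. The groups did not overlap. The difference was -0.78 (SE 0.15, limma adjusted p = 0.335, range 0.019 to 0.879 over the alternatives), or -0.63 without control replicate 3, and 19 tested genes had a more negative one.

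Ier5 (ENSMUSG00000056708.5, chr1:155096361-155099636, − strand), also a single-exon gene, encodes a protein that helps activate the heat shock factor HSF1. It measured 25.4, 30.2 and 33.7 FPKM in control and 17.2, 16.8 and 21.2 with TPPU. Its highest TPPU value lay below its lowest control value, and its control values were less dominated by replicate 3 than those of the other IER genes (1.21 times the mean of the other 2, against 1.4 in Ier2 and 2.07 in Ier3). The difference was -0.66 (SE 0.13, limma adjusted p = 0.339, range 0.0426 to 0.908 over the alternatives), or -0.57 without that library. HSF1 and its chaperone targets had 5 tested genes, 4 of them with negative differences (4437 of all 9728 tested genes). Their median was -0.49, or -0.75 without control replicate 3. None of the 5 was called without weights, and 3 were called lower with quality weights (0.822% of all tested genes). That setting gave control replicate 1 a weight of 3.84 and control replicate 3 a weight of 0.191. The 4 tested chaperone and co-chaperone genes were highest in control replicate 1, whereas Hsf1 itself had a difference of 0.03. Dnajb1, a co-chaperone gene, stood at 77.5, 34.1 and 16.7 FPKM in control replicates 1, 2 and 3 and at 13.6, 17.8 and 21.7 with TPPU, while Ier5 had its lowest control value in replicate 1. Hspa1b, an inducible heat shock protein gene, had the same order in control as Dnajb1 (70.5, 39.7 and 21.3). A link between the level of Ier5 and that of these genes was not tested.

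Ier3 (ENSMUSG00000003541.6, chr17:35821684-35822923, + strand), an NF-κB target that modulates cell death and ERK signalling, had the highest level of the set and lay above 97.2% of tested genes in its control mean. It measured 89.5, 111 and 207 FPKM in control and 95.8, 70.4 and 92.9 with TPPU. Control replicate 3 stood well above the others, control replicate 1 lay within the TPPU range and control replicate 2 above it. The difference was -0.57 (SE 0.28, 95% interval -1.2 to 0.07, limma adjusted p = 0.638), or -0.22 without control replicate 3.

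The NR4A genes, whose upstream windows carry the repeated TGACG letters, had overlapping groups in all 3 cases. Nr4a1 (ENSMUSG00000023034.7, chr15:101254269-101274795, + strand), the receptor gene induced in macrophages by LPS and other inflammatory signals, measured 5.48, 5.99 and 9.83 FPKM in control and 5.07, 5.96 and 5.92 with TPPU. Control replicate 1 lay inside the TPPU range and replicate 2 just above it, and replicate 3 was 1.72 times their mean. The difference was -0.25 (SE 0.19, 95% interval -0.69 to 0.19, limma adjusted p = 0.747), or -0.02 without control replicate 3, and it was 0.017 with quality weights.

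Nr4a3 (ENSMUSG00000028341.9, chr4:48045153-48086447, + strand), a close paralog, measured 1.62, 1.55 and 2.23 FPKM in control and 2.3, 2.2 and 1.77 with TPPU. Here control replicate 3 fell among the TPPU values and the other 2 controls lay below them. The difference was 0.15 (SE 0.15, 95% interval -0.2 to 0.49, limma adjusted p = 0.805), or 0.25 without control replicate 3. The groups no longer overlapped without that library, but they separate more easily with a library left out. Nr4a2 (chr2:57106830-57124003, − strand), known for its need in dopamine neurons, measured 0.78, 0.558 and 0.993 FPKM in control and 0.893, 0.821 and 1.04 with TPPU, with overlapping groups. Its difference was 0.12 (two-sided exact permutation p = 0.4), or 0.2 without control replicate 3. The genes of the RXR partners, with which some NR4A receptors pair, had 1 tested member, Rxrb, at 20.7 ± 2.44 in control and 22.4 ± 1.99 with TPPU (SD, n = 3).

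Srf (ENSMUSG00000015605.6, chr17:46548329-46556175, − strand), the gene of the factor that binds CArG boxes, was at 15 ± 1.12 FPKM in control and 16.2 ± 1.22 with TPPU (SD, n = 3). The libraries measured 16.1, 15 and 13.9 FPKM in control and 17.3, 16.4 and 14.9 with TPPU. The groups overlapped, and control replicate 3, the highest library for 6 of the 10 genes, was the lowest for Srf. The difference was 0.1 (SE 0.1, 95% interval -0.13 to 0.34, limma adjusted p = 0.797), or 0.05 without control replicate 3.

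**Figure D2:**
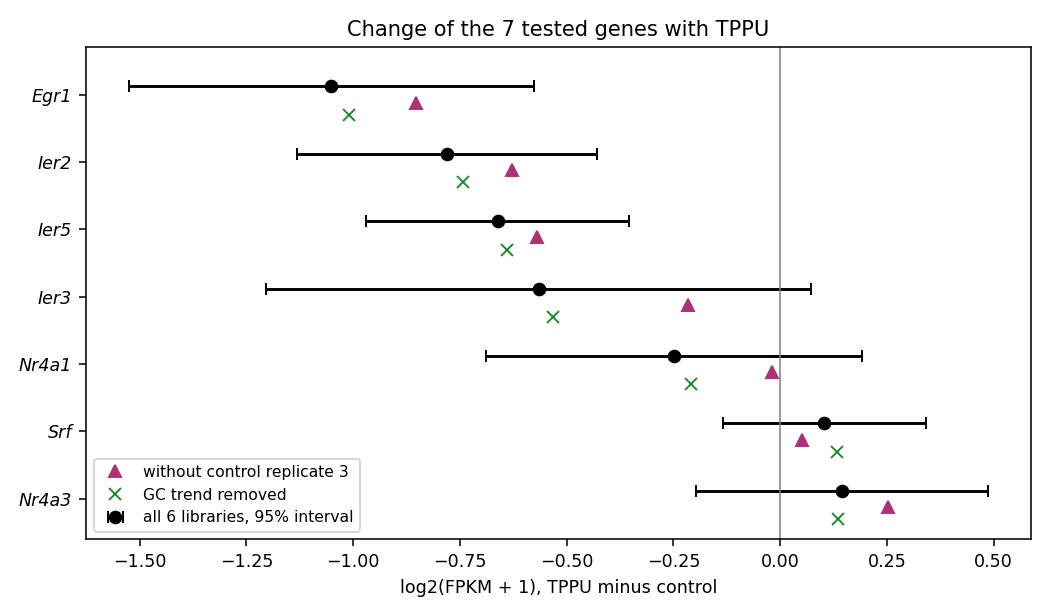
Difference of TPPU from control in mean log2(FPKM + 1) for the 7 tested genes (horizontal axis), with 95% intervals from limma over all 6 libraries, beside the value without control replicate 3 and the value after removal of a trend with transcript GC content. Egr1, Ier2 and Ier5 lie between -1.05 and -0.57 under all 3 settings, whereas Nr4a1 is at -0.02 without that library.

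**Figure D3:**
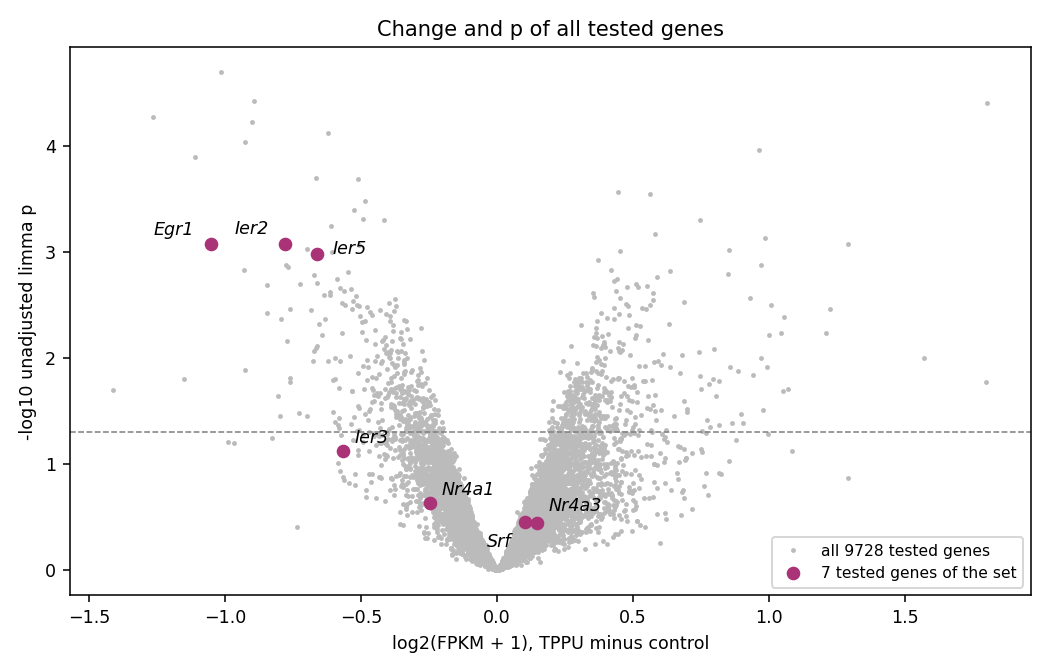
Difference of TPPU from control in mean log2(FPKM + 1) (horizontal axis) against -log10 of the unadjusted limma p (vertical axis) for the 9728 tested genes, with the 7 tested members named. The dashed line marks an unadjusted p of 0.05. Egr1, Ier2 and Ier5 lie above it on the left, and Ier3, Nr4a1, Nr4a3 and Srf below it.

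In the control group the levels, which FPKM gives per length, ran in the order Ier3, Ier5, Egr1, Srf, Ier2, Nr4a1, Nr4a3, Nr4a2, Egr2 and Egr3, with means from 135.8 down to 0.334 FPKM. The ranges of Ier5 and Egr1, of Srf and Ier2, and of Egr2 and Egr3 overlapped, and those of the other neighbours did not. With TPPU, Srf (mean 16.2) stood above Egr1 (mean 10.5) with ranges apart, the reverse of their order in control. Ier2 and Nr4a1, apart in control, were still in that order by mean with TPPU at 6.41 and 5.65, and their ranges overlapped.

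Across single libraries the genes did not follow one pattern. Control replicate 3 was the highest of 6 libraries for 5 of the 7 tested members (Egr1, Nr4a1, Ier2, Ier3 and Ier5), against 34.8% of all tested genes. TPPU replicate 1 was the lowest for Egr1, Egr2 and Nr4a1 and the highest for Egr3, Nr4a3 and Srf. In units of each gene's SD over the 6 libraries, control replicate 3 ran from -1.45 in Srf to 1.97 in Nr4a1. The mean pattern of the 7 was rescaled to an SD of 1 over the 6 libraries. On that scale, which is not the SD of single genes, the mean pattern put control replicate 3 at 1.91. The others lay between -0.87 and 0.06 in the mean pattern. Nr4a3 and Srf departed most from it, with root mean square differences of 1.14 and 1.66, against 0.33 to 0.59 for the other 5. The 5 tested genes outside the set that came nearest to the mean pattern over the 6 libraries were Ctsb, Bcar3, Tln1, Niban2 and Usp4, with root mean square differences of 0.08 to 0.12. These 5 were chosen for nearness to this pattern, so their separated groups and their maximum in control replicate 3 follow from the choice. Their differences were -0.39 to -0.18, or -0.22 to -0.1 without control replicate 3. Tln1, which encodes the integrin-linking protein talin, measured 158, 160 and 212 FPKM in control and 149, 148 and 136 with TPPU.

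**Figure D4:**
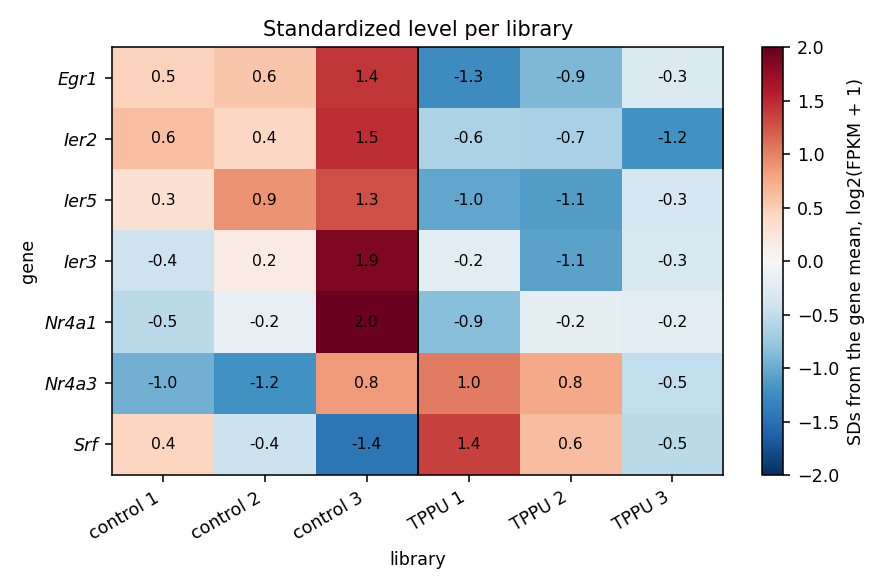
Level of the 7 tested genes (rows) in the 6 libraries (columns), as SDs from each gene's mean of log2(FPKM + 1), with the value printed in each cell. Control replicate 3 is the highest library of the first 5 rows, and Nr4a3 and Srf show other orders.

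In the set, GC content ran from below to well above the median of tested genes, which was 49.6%. Srf (64.4% GC in its longest transcript), Ier2 (60.9%), Egr1 (57.3%) and Nr4a1 (57%) lay above 99.8%, 98%, 89.5% and 87.9% of tested genes. Ier3 (54.4%), Ier5 (52.3%), Egr2 (51.4%) and Egr3 (51.3%) were nearer to the median, and Nr4a3 (48.4%) and Nr4a2 (47.9%) lay below it. Removal of a trend with GC content in each library left Egr1 at -1.01, Ier2 at -0.74, Ier5 at -0.64, Ier3 at -0.53 and Nr4a1 at -0.21, and none was called. Ier2 and Ier3 have short transcripts, of 1522 and 1131 bases, and removal of a trend with length left them at -0.82 and -0.63.

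Other immediate-early genes were counted from a list of 34 symbols, which was chosen with earlier results of these data known and so gives no independent support. Of 27 tested, 25 had negative and 2 positive differences (4437 negative of all 9728 tested genes). The median was -0.43, or -0.29 without control replicate 3, against 0.02 over all genes. None passed over all genes, and 10 were called lower with quality weights (0.822% of all tested genes). At an unadjusted p under 0.05, 18 were lower (3.7% of all tested genes), and in 17 the groups were fully separated with TPPU lower (7.88% of all tested genes). Klf6, a Krüppel-like transcription factor gene, measured 61.1, 60.6 and 56.3 FPKM in control and 36.5, 38.3 and 39.8 with TPPU (difference -0.62, SE 0.09, limma adjusted p = 0.122), and control replicate 3 was its lowest control. Dusp1, a MAP kinase phosphatase gene, measured 15.8, 19.4 and 21.8 FPKM in control and 9.75, 8.62 and 9.99 with TPPU. Fos, the AP-1 factor gene that SRF and ELK1 control beside Egr1, measured 6.39, 4.57 and 6.74 FPKM in control and 2.99, 2.52 and 3.58 with TPPU. Csrnp1, the gene of a nuclear protein, measured 33.6, 33.7 and 36.6 FPKM in control and 23.8, 22 and 26.4 with TPPU.

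In the ERK cascade, which acts upstream of the set, 11 of 15 tested genes had negative differences (median -0.03). Over all 9728 tested genes 4437 differences were negative. None of the 15 was called without weights, and 1 was called lower with quality weights (0.822% of all tested genes). Map3k8, the gene of the kinase that links Toll-like receptors to ERK in macrophages, measured 8.13, 8.84 and 7.56 FPKM in control and 6.91, 5.69 and 5.58 with TPPU. Its difference was -0.38 (SE 0.12, limma adjusted p = 0.53). It was the 1 gene of the 15 with groups separated and TPPU lower (7.88% of all tested genes). Of the p38, MSK and CREB factors 9 of 12 had negative differences (median -0.07, or -0.037 without control replicate 3). In 2 the groups were separated with TPPU lower and in 1 with TPPU higher (7.88% and 7.48% of all tested genes). Ep300, a histone acetyltransferase gene, was at 5.67 ± 0.77 in control and 4.42 ± 0.35 with TPPU (SD, n = 3). Mapkapk2, the gene separated with TPPU higher, measured 264, 251 and 266 FPKM in control and 290, 277 and 271 with TPPU. Of the SRF cofactors 4 of 5 had negative differences (median -0.18, or -0.079 without control replicate 3). Mrtfb was at 6.04 ± 0.55 and 4.92 ± 0.33 and Elk4 at 9.09 ± 0.28 and 7.94 ± 0.73. These 2 of the 5 had separated groups with TPPU lower (7.88% of all tested genes).

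Cytoskeletal targets of SRF had 13 of 17 negative differences (median -0.16, or -0.12 without control replicate 3). Over all 9728 tested genes 4437 differences were negative. None of the 17 was called without weights, and 2 were called lower with quality weights (0.822% of all tested genes). In 8 of the 17 the groups were fully separated with TPPU lower, against 7.88% of all tested genes. Actg1, the gene of cytoplasmic gamma-actin, measured 926, 942 and 1052 FPKM in control and 698, 651 and 698 with TPPU (difference -0.51, SE 0.08, limma adjusted p = 0.182). Actb, the gene of beta-actin, measured 831, 795 and 994 FPKM in control and 736, 691 and 673 with TPPU. These groups did not overlap although those of Srf did. Both actin genes have processed pseudogenes, and how the authors assigned reads shared with them is not known. Of 5 tested target genes of EGR1 all had negative differences (median -0.21, or -0.12 without control replicate 3). In 2 of them the groups were separated with TPPU lower (7.88% of all tested genes), and none was called. All 5 were highest in control replicate 3, against 34.8% of all tested genes. Plau, the urokinase gene, measured 46.7, 54.4 and 67.6 FPKM in control and 41.8, 45 and 42.6 with TPPU, and Tgfb1 107, 105 and 117 in control and 94.6, 99 and 98.2 with TPPU.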

How the data were processed

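Poly(A) RNA was sequenced with a dUTP strand-marking protocol, per the labels' protocols. The authors deposited 1 table of FPKM for 6 libraries, with the unit taken from the table's name and values. The submitters' processing notes name mm10. No aligner, counter, annotation or filter is given in the sources used here. Library names tied columns to samples.

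Depth was estimated from low FPKM values of genes with a single GENCODE M21 transcript, of which 91.5% to 92.5% per library were whole multiples of 1 fragment within 0.1, against 20% by chance. Estimates of fragments cover counting error only. The filter was at least 1 FPKM in at least 3 libraries, and the left-out genes numbered 8291. Values were transformed as log2(FPKM + 1), so differences understate the change of low genes. Group was the only term of a limma fit (limma 3.58.1, R 4.3.3) that modelled the trend of variance with mean. P-values were two-sided, with Benjamini-Hochberg adjustment over all genes tested and a threshold of 0.05. Genes under the filter were compared by exact permutation over libraries. The script was tested on simulated data. The members and lists were chosen with earlier results of these data known.

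All 10 members were named, with up to 4 genes of each other list by smallest p and the 5 genes of nearest standardized pattern. A withheld gene of these lists is not reported here. Alternatives were pseudocounts of 0.1 and 0.5, removal of the filter, a filter on means under 5 FPKM, median-of-ratios and quantile scaling, no trend, quality weights, robust fitting, a replicate block, removal of GC or length trends by loess (span 0.3, 97.9% of tested genes with values) and each library left out. Leaving out control replicate 3 with TPPU replicate 1 was added after the data were seen. Promoter windows are RefSeq's (GRCm38.p6), and positions are 1-based. Python 3.11.15, numpy 2.4.6, pandas 2.3.3, scipy 1.17.1 and matplotlib 3.10.9 were used.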

Additional observations from a re-analysis of the deposited data

How the results depend on the processing

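The differences of Egr1, Ier2, Ier3, Ier5, Nr4a3, Srf, Egr2 and Nr4a2 kept their sign under every alternative run. The log2 change of Nr4a1 was 0.017 with quality weights, -0.39 without control replicate 1 and 0.045 without control replicate 3 and TPPU replicate 1 together. The log2 change of Egr3 was -0.20 without the same 2 libraries, and 0.013 without TPPU replicate 2. The causes were not tested. With quality weights limma called 80 genes lower and 89 higher over all genes and 3 members lower, at adjusted p of 0.0253 (Egr1), 0.019 (Ier2) and 0.0426 (Ier5), and the median of the members was -0.24. Without control replicate 3 and TPPU replicate 1 together, 10 genes were lower and 29 higher, and no member was called. The median of the 7 tested members was then -0.30. Of those 7, 3 had all TPPU values below control and 1, Nr4a3, had all above. With 2 libraries per group separation is easily reached, and no share of all tested genes stands beside these counts. With single libraries left out, 0 to 1 genes were lower and 0 to 5 higher, both maxima without TPPU replicate 1. The median ran from -0.77 without control replicate 1 to -0.22 without control replicate 3. Of the 7 tested members, those with all TPPU values below control numbered 3 to 5, the 5 without control replicate 1 (with Ier3 and Nr4a1). Those above numbered 0 to 1, namely Nr4a3 without control replicate 3 and Srf without TPPU replicate 3. Groups separate more easily with a library left out, and the shares of all tested genes given above are for all 6 libraries. These counts therefore have no background beside them and are not read as a result about the members.

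Whether the replicate numbers pair the libraries was not settled. Same-numbered control and TPPU libraries had correlations of deviations across genes of -0.30, 0.15 and -0.40, and control replicate 3 with TPPU replicate 1 had 0.51. Deviations from a mean of 3 libraries depend on each other, and 1 library that stands apart shapes them, so these correlations cannot decide it. With the replicate block 0 genes were lower and 0 higher, and the median of the members was -0.57. Nr4a3 had no value at a mean of at least 5 FPKM, and Egr2, Egr3 and Nr4a2 none in the scaling, spread and trend alternatives. Values of Egr2 and Egr3 rest on about 7.93 to 34.3 fragments per library.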
